A study of Mus musculus with 6 samples.

Results

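The immediate early genes examined here were Fos, Fosb, Jun, Junb, Egr1, Egr3, Nr4a1, Klf4 and Ier2, which encode transcriptional regulators, and Dusp1, which encodes a phosphatase. Every probe set whose gene symbol in the array platform's annotation is exactly one of these names was taken, which gave 13 probe sets for 10 genes of the 18193 genes with 1 symbol on the array. A probe set is a group of short probes that reports 1 transcript. Jun, Egr3 and Klf4 had 2 probe sets each and the other 7 genes had 1. The tissue was the stria vascularis, a blood-supplied epithelium on the cochlea's outer wall that secretes potassium into the endolymph. It was taken from mice at postnatal day 10, and total RNA was amplified, labelled and hybridised to Affymetrix whole-genome mouse arrays. There were 3 arrays of Slc26a4 knockout mice (replicates 2, 4 and 6) and 3 of Slc26a4 heterozygous mice (replicates 1, 3 and 5), so no group carried a full pair of working alleles. Slc26a4 encodes pendrin, which exchanges anions across membranes of inner ear, thyroid and kidney cells. Strain, sex, the knockout allele and whether an array held 1 animal or a pool are not given in the sources used here, and every p-value then reflects only how much these samples vary, which may be technical.

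Immediate early genes are transcribed within minutes of a stimulus without the need for newly made protein, from growth factors, calcium entry, stretch or stress, the handling of tissue included. Signals pass through MAP kinases and through calcium and cyclic AMP to factors already bound at the promoters, such as SRF with its partners and CREB, and the transcripts are short-lived. Fos and Jun proteins pair into the AP-1 complex, Egr proteins and Klf4 bind GC-rich DNA through zinc fingers, Nr4a1 is an orphan nuclear receptor, and Dusp1 removes phosphate from MAP kinases and so limits the response. In bulk tissue, fewer cells of a type and less RNA per cell cannot be told apart.

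The promoters of 7 of the 10 genes, Fos, Fosb, Jun, Junb, Nr4a1, Klf4 and Dusp1, were matched by symbol in RefSeq sequences of build GRCm38.p6, and the 250 bases before the start were searched on both strands. TGACG, the core of the element bound by CREB, was found in 6 of the 7 (all except Jun), against 17.8% of 32851 promoters of the same length. The full palindrome TGACGTCA, which contains that core on each strand, was found in 1, Dusp1, against 1.55% of promoters. TATAAA was found in 1, Fos, against 12.4%. TGACTCA (an AP-1 element, in 4.46% of promoters), GCGTGGGCG (an Egr element, in 0.536%) and the CArG box bound by SRF (in 1.47%) were found in none of the 7 within these bases. Fos, Nr4a1 and Dusp1 are printed because each held the core more than once. Capitals mark TGACG or its complement on the other strand.
Fos (chr12:85473640-85473889, plus strand): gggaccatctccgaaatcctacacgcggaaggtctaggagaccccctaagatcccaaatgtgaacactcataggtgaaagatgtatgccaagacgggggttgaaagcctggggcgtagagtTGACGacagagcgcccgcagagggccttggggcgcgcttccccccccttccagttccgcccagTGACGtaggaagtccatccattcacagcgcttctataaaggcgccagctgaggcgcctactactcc
Nr4a1 (chr15:101266596-101266845, plus strand): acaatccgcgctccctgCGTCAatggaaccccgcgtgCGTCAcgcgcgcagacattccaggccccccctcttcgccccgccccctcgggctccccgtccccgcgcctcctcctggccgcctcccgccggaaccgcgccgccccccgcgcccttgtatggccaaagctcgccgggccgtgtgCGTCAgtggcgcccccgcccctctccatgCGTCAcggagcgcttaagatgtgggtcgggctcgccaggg
Dusp1 (chr17:26508473-26508722, minus strand): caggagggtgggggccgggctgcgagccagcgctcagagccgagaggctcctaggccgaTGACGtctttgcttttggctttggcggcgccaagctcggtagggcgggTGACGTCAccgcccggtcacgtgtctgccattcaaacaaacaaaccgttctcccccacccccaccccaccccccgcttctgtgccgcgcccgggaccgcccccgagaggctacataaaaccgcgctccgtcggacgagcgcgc
In Fos the matches began 129 and 66 bases before the start. In Nr4a1 there were 4, the farthest 233 and the nearest 40 bases before the start. In Dusp1 they began 191, 143 and 140 bases before it, the last 2 lying in TGACGTCA, on opposite strands and overlapping. A match describes letters and does not show that a factor was bound.

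Most markers of the strial cell layers were bright. Across the 6 arrays the signal was 4266 to 5801 for Kcne1 and 5326 to 6341 for Kcnq1 of marginal cells, 2586 to 4084 for Kcnj10 and 4368 to 5736 for Tyr of intermediate cells, and 7412 to 8690 for Cldn11 of basal cells. Among the other markers of these lists, Bsnd of marginal cells was at 431 to 884 and Pmel of intermediate cells at 70.1 to 110, and Tyrp1 of intermediate cells was below the filter at 1.03 to 13.1. Slc26a4 was at 75.5, 106 and 154 in knockout replicates 2, 4 and 6, against 221, 248 and 1006 in heterozygous replicates 1, 3 and 5. Every knockout array was below every heterozygous one (limma adjusted p = 0.371). Knockout replicate 4 stood apart, with the lowest weight in limma's array weighting (0.256, against 0.820 to 2.93 on the other arrays) and a ratio of the 3' to the 5' actin control probe set, a sign of RNA integrity, of 4.48, against 2.42 to 3.15 on the other arrays.

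No early response gene was called different between the genotypes. Of the 10 genes, 9 passed the filter on dim probe sets (a mean signal over all arrays of at least 46.3). Of these, 0 were called by limma at an adjusted p under 0.05, and 0 had an unadjusted p under 0.05. Among all tested features 0.0037% of probe sets and 0.00805% of genes were called, and 6.44% of genes had an unadjusted p under 0.05 (3.21% higher and 3.23% lower in knockout samples), so a count of 0 among 9 was near the background. The groups overlapped in all 9, while they did not overlap in 13.1% of all tested genes (6.07% with knockout above and 7.04% with knockout below). The log2 difference, knockout minus heterozygote on the log2(signal + 16) scale, was negative for 6 genes and positive for 3. The median was -0.07, against -0.04 over 12421 genes. It was 0.12 without knockout replicate 4, -0.16 without knockout replicate 6 and 0.09 with a filter at the 60th percentile, so its sign rested on single arrays and on the filter. Centring each array on its median moved both medians down, to -0.27 for the 9 genes and -0.24 for all genes, and all 9 then had a negative difference.

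**Figure D1:**
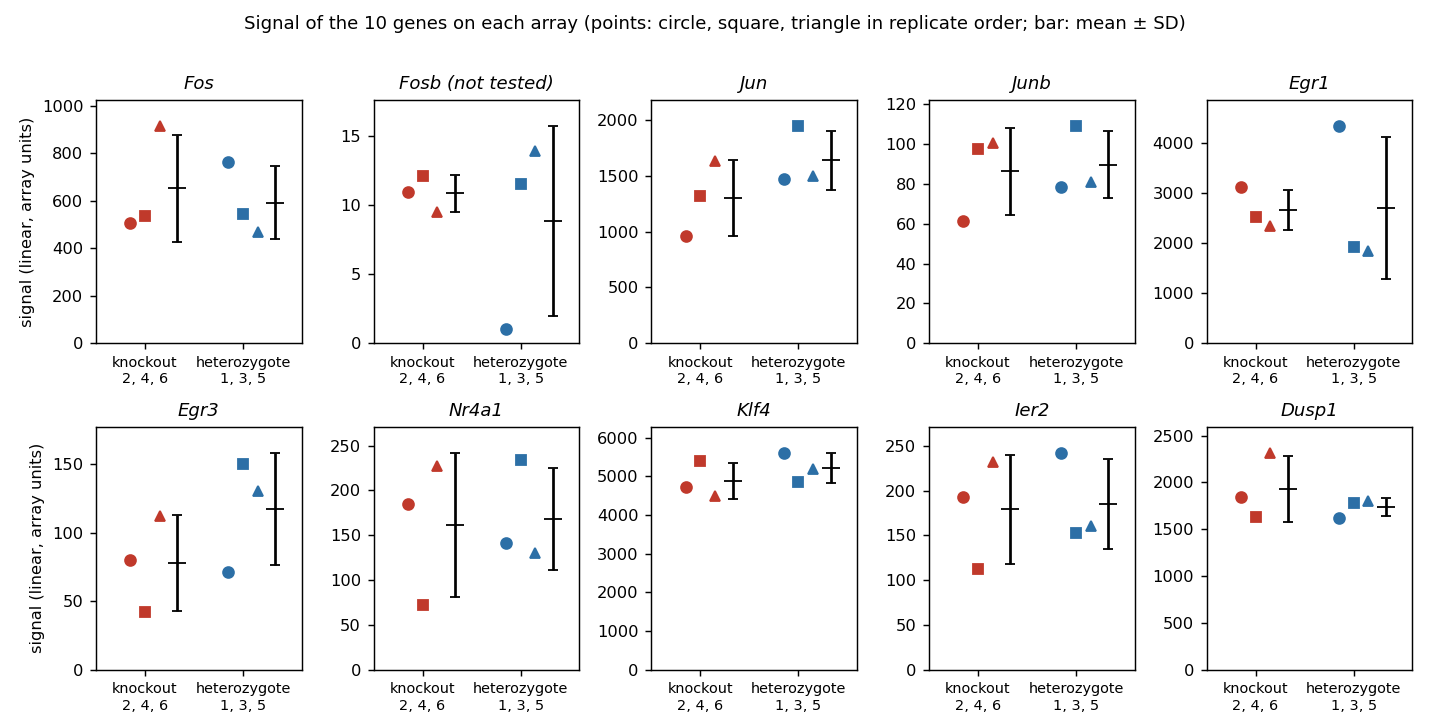
Deposited signal (linear, y axis from 0) of each of the 10 genes on the 3 knockout arrays (red) and the 3 heterozygous arrays (blue), with a marker shape for each replicate and a black bar for mean ± SD. In each of the 9 genes tested the colours overlap, and Egr1 has a single high array, heterozygous replicate 1 at 4340.

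Among the AP-1 genes, Fos had signals of 506, 537 and 914 in knockout replicates 2, 4 and 6, against 765, 543 and 470 in heterozygous replicates 1, 3 and 5 (probe set 1423100_at). One array of each genotype, knockout replicate 6 and heterozygous replicate 1, was above the other 4. The means were 652 ± 227 in knockout and 592 ± 154 in heterozygous samples (SD, n = 3 each). The log2 difference was 0.11 with a 95% interval of -0.48 to 0.70 and a limma adjusted p of 0.901. Fosb, the closest relative of Fos in the set, did not pass the filter. It was listed at 11, 12.1 and 9.51 in knockout samples, against 1.07, 11.6 and 14.0 in heterozygous samples, levels too dim for a fold to be read.

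Jun, the main partner of Fos in AP-1, gave 957, 1315 and 1630 in knockout samples, against 1474, 1943 and 1495 in heterozygous samples (probe set 1448694_at). Of the knockout arrays, replicates 2 and 4 were below every heterozygous array and replicate 6 was not. The log2 difference was -0.35 ± 0.20 (SE), with an interval of -0.80 to 0.10 and a limma adjusted p of 0.535. The second Jun probe set, 1417409_at, gave 282, 224 and 279 in knockout samples, against 295, 359 and 296 in heterozygous samples. On it every knockout array was below every heterozygous one, by as little as 282 against 295, at -0.26 on the log2 scale (limma adjusted p = 0.646). Both Jun probe sets thus had the lower mean in knockout samples, and neither passed the test. Junb, which pairs with Fos proteins as a weaker activator than Jun, gave 61.2, 97.4 and 100.4 in knockout samples, against 78.7, 108.9 and 81.2 in heterozygous samples. Its groups overlapped, with a log2 difference of -0.06 and an interval of -0.65 to 0.54 (limma adjusted p = 0.950).

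Egr1, a zinc finger factor induced through SRF, gave 3121, 2528 and 2351 in knockout samples, against 4340, 1925 and 1838 in heterozygous samples. The 3 knockout arrays lay between the highest heterozygous array and the other 2. The means were 2667 ± 403 in knockout and 2701 ± 1421 in heterozygous samples (SD, n = 3 each). The log2 difference was 0.09 with an interval of -0.55 to 0.73 (limma adjusted p = 0.927), so the mean signal was lower and the mean log2 signal higher in knockout samples. Without heterozygous replicate 1, which held the highest Egr1 value, the log2 difference was 0.49 and the groups did not overlap (limma unadjusted p = 0.0138, adjusted p = 0.409). In that fit the groups did not overlap in 25.7% of all genes. Egr3, a relative of Egr1 that binds the same kind of site, gave 80.3, 42.0 and 112 in knockout samples, against 71.1, 150 and 130 in heterozygous samples (probe set 1436329_at). Its log2 difference of -0.52 was the farthest from 0 among the 9 genes and had the widest interval apart from Nr4a1, from -1.32 to 0.28 (limma adjusted p = 0.610). It was -0.21 without knockout replicate 4 and -0.80 without heterozygous replicate 1. In the latter fit every knockout array was below every remaining heterozygous one, the opposite side to Egr1. The other Egr3 probe set, 1421486_at, was too dim to be tested, at 34.0, 15.2 and 27.9 in knockout samples, against 8.76, 9.05 and 11.8 in heterozygous samples, and lay on the opposite side.

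Nr4a1 gave 185, 72.0 and 228 in knockout samples, against 141, 234 and 130 in heterozygous samples. Knockout replicate 4 was lowest of all 6 arrays, at less than any heterozygous value, while the other 2 knockout arrays lay within the heterozygous range. The log2 difference was -0.14 with an interval from -1.0 to 0.72 (limma adjusted p = 0.918), and 0.31 without knockout replicate 4. Klf4, a zinc finger factor that epithelia also use outside the early response, gave 4737, 5404 and 4492 in knockout samples, against 5612, 4851 and 5179 in heterozygous samples (probe set 1417395_at). These arrays stayed close, and the log2 difference of -0.10 had the narrowest interval of the set, -0.32 to 0.13 (limma adjusted p = 0.748). Its second probe set, 1417394_at, gave 3551, 2487 and 3691 in knockout samples, against 3926, 4113 and 3894 in heterozygous samples. There the groups did not overlap, with a log2 difference of -0.31 ± 0.15 (SE, limma unadjusted p = 0.0580, adjusted p = 0.443). The probe sets of Klf4 disagreed on knockout replicate 4, which was the highest knockout array on the first and the lowest of all arrays on the second.

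Ier2, a small nuclear protein of the early response, gave 192, 112 and 232 in knockout samples, against 242, 153 and 160 in heterozygous samples. The groups overlapped over most of their range, with a log2 difference of -0.07 and an interval of -0.73 to 0.59 (limma adjusted p = 0.946). Dusp1 gave 1844, 1626 and 2316 in knockout samples, against 1624, 1781 and 1798 in heterozygous samples. Knockout replicates 2 and 6 were above every heterozygous array, and replicate 4 was level with the lowest. The log2 difference was 0.14 with an interval of -0.20 to 0.47 (limma adjusted p = 0.761). It was 0.25 without knockout replicate 4 and -0.00086 without knockout replicate 6.

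**Figure D2:**
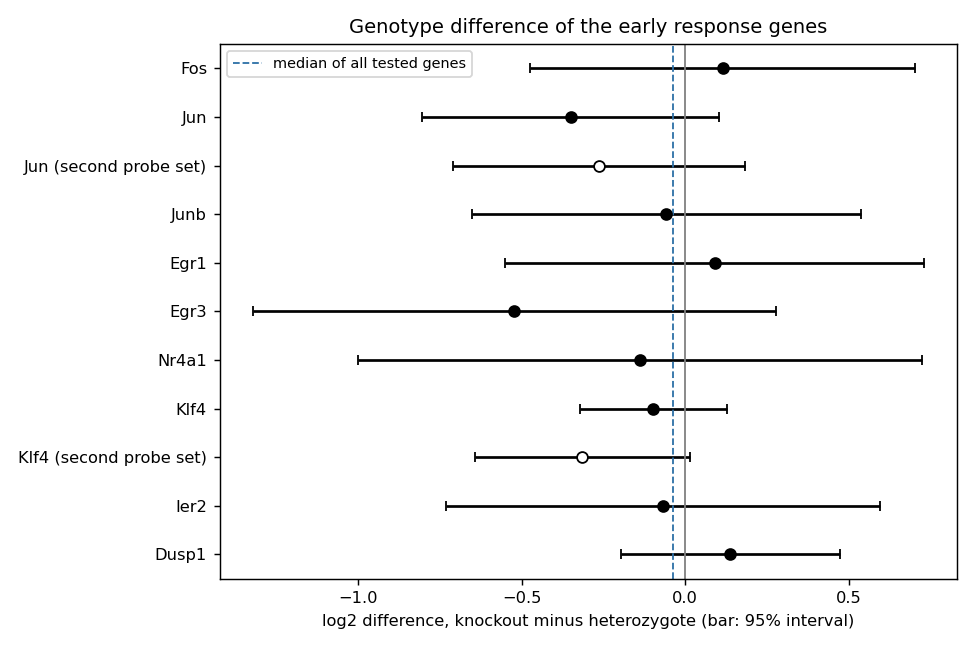
Log2 difference between knockout and heterozygous samples (x axis) for the 11 probe sets tested, with bars for the 95% interval, filled points for the brightest probe set of a gene and open points for a second one. The interval of each probe set includes 0, and the intervals of Egr3 and Nr4a1 are the widest.

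On the fold scale of log2(signal + 16), knockout over heterozygote, the interval was 0.799 to 1.09 for Klf4 and 0.873 to 1.39 for Dusp1. It was 0.573 to 1.08 for Jun and 0.719 to 1.63 for Fos. For Nr4a1 it reached from 0.50 to 1.65 and for Egr3 from 0.40 to 1.21, the widest of the 9 genes on the log2 scale.

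The early response genes varied more between arrays of 1 genotype than most genes on the array. The SD within genotype on the log2 scale had a median of 0.409 over the 9 genes, against 0.211 over all tested genes. It was above the median of all genes in 7 of 9 and above their 75th percentile in 5 of 9, namely Nr4a1 (0.626, at percentile 96.9), Egr3 (0.538, 94.6), Egr1 (0.513, 93.5), Ier2 (0.423, 88.5) and Fos (0.409, 87.3). Jun (0.312) and Junb (0.282, at percentile 68.3) lay between the median and the 75th percentile. Dusp1 (0.190, 43.2) and Klf4 (0.122, 17.5) lay below the median. Spread also depended on level: the median SD was 0.318 in the dimmest 25% of tested genes, which held Junb, Egr3, Ier2 and Nr4a1, and 0.136 in the brightest 25%, which held Egr1, Klf4 and Dusp1. Junb and Klf4 thus lay below the median of their level, and Egr3, Ier2, Nr4a1, Egr1 and Dusp1 above it. Fos and Jun also lay above the medians of their levels, 0.242 and 0.197. Egr3 had both the largest genotype difference and the second largest spread, while Jun, with the second largest difference, lay at percentile 74.2. With each array left out in turn, 4 to 7 of the 9 genes were above the 75th percentile. Fos was no longer among them without knockout replicate 6, and Jun and Junb joined them without knockout replicate 4. Without heterozygous replicate 1, Egr1 dropped out, its SD being 0.174, and Jun joined. Egr3, Ier2 and Nr4a1 were among them whichever array was left out. This comparison was chosen after seeing the data.

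**Figure D3:**
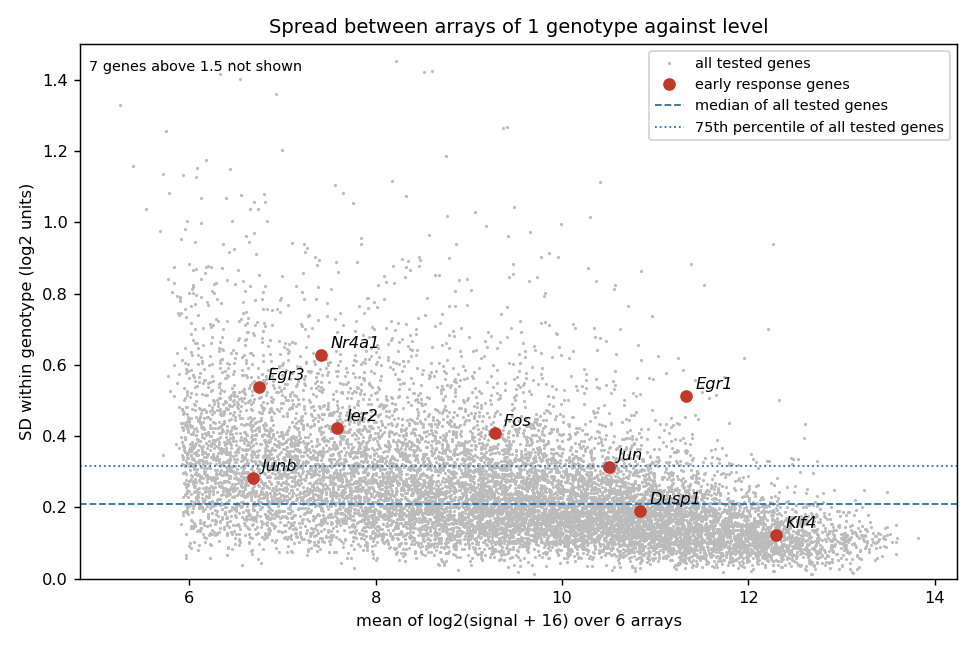
SD between arrays of the same genotype (y axis, log2 units) against the mean of log2(signal + 16) over the 6 arrays (x axis) for all tested genes (grey) and the 9 early response genes (red), with the median and 75th percentile of all genes as dashed and dotted lines. Nr4a1, Egr3, Egr1, Ier2 and Fos lie above the dotted line, and Dusp1 and Klf4 below the dashed one.

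Taken gene by gene, the spread was not gathered on 1 array more than in other genes, but most of the 9 were high in knockout replicate 6. The array that deviated most held a median of 42.3% of a gene's summed squared deviations within genotype, against 47.4% over all tested genes. By array, the mean share over the 9 genes was 25.9% in knockout replicate 6 (18.3% over all genes), 24.3% in knockout replicate 4 (26.6%) and 13.5% in knockout replicate 2 (18.9%). It was 19% in heterozygous replicate 1 (14.4% over all genes), 11.5% in replicate 3 (11.9%) and 5.82% in replicate 5 (9.9%). Among knockout arrays, replicate 6 was highest for 7 of the 9 genes (Fos, Jun, Junb, Egr3, Ier2, Nr4a1 and Dusp1), where 33% of all genes had their highest knockout value. The median deviation of the 9 genes from their knockout mean was 0.36 log2 units in replicate 6, against -0.22 in replicate 4 and -0.04 in replicate 2. Over all genes these medians were 0.02, -0.05 and 0.03. The other gene lists described below were likewise high in replicate 6 and low in replicate 4. Their medians in replicates 6 and 4 were 0.20 and -0.35 for the other transcription factors, and 0.18 and -0.21 for the effectors and feedback genes. For the upstream kinases and factors they were 0.17 and -0.12, and for the heat shock genes 0.15 and -0.25. Replicate 4 was lowest of the knockout arrays for 4 genes (Egr3, Ier2, Nr4a1 and Dusp1), against 45.8% of all genes, with deviations of -0.89 for Nr4a1, -0.63 for Egr3 and -0.55 for Ier2. Replicate 2 was lowest for Fos, Jun and Junb, the AP-1 genes, with deviations of -0.31, -0.40 and -0.38. Egr1 and Klf4 departed from the others, with their lowest knockout value in replicate 6.

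The heterozygous arrays differed in which genes were high. Fos, Egr1, Ier2 and Klf4 were highest in replicate 1, with deviations from the heterozygous mean of 0.39, 0.80, 0.39 and 0.11. Jun, Junb, Egr3 and Nr4a1 were highest in replicate 3, with 0.26, 0.25, 0.37 and 0.48. Dusp1 was highest in replicate 5, by little, with 0.05 against 0.04 in replicate 3, and 4 of the 9 genes had their lowest heterozygous value in replicate 1. The median over the genes was -0.09, 0.04 and -0.12 in heterozygous replicates 1, 3 and 5, against 0.00056, -0.003 and 0.0022 over all genes. In replicate 5, 7 of the 9 genes lay below their heterozygous mean. Jun and Junb lay on the same side of the genotype mean on 6 of 6 arrays, and Fos and Ier2 on 5 of 6. Egr3 and Nr4a1 did so on 5 of 6, but Jun and Egr1 on 1 of 6. The largest single contribution was that of heterozygous replicate 1 to Egr1, with 60.9% of the summed squared deviations of that gene, a share reached on the top array by 9.69% of all tested genes. Nr4a1 followed among the genes above the 75th percentile of spread, with 50.1% from knockout replicate 4.

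**Figure D4:**
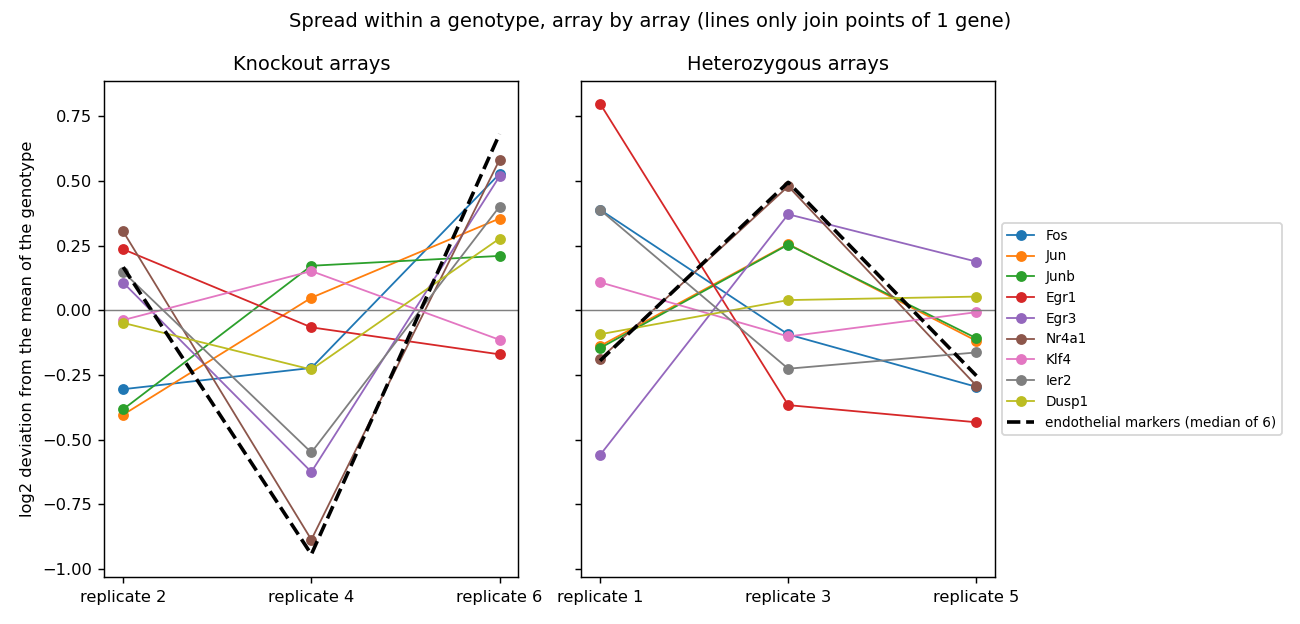
Deviation of log2(signal + 16) from the mean of the genotype (y axis) on each knockout array (left) and heterozygous array (right), with 1 coloured line a gene and the median of 6 endothelial markers as a dashed black line. Of the 9 genes 7 peak in knockout replicate 6, and the heterozygous peaks fall in replicate 1 for 4 genes, in replicate 3 for 4 and in replicate 5 for Dusp1.

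Endothelial markers varied over the same arrays. Pecam1, Cdh5, Kdr, Tek, Flt1 and Cldn5 were all highest in replicate 6 among knockout arrays and all highest in replicate 3 among heterozygous arrays, and 5 of 6 were lowest in knockout replicate 4. Their summed signal was 4601, 2337 and 7039 in knockout replicates 2, 4 and 6 (a range of 2337 to 7039), against 4268, 7662 and 4372 in heterozygous replicates 1, 3 and 5 (4268 to 7662). The defining markers Pecam1 and Cdh5 were at 44.0 and 222 in knockout replicate 4, against 172 to 275 and 359 to 813 on the other arrays. The median deviation of the list was 0.17, -0.94 and 0.68 on the knockout arrays, against -0.20, 0.50 and -0.25 on the heterozygous arrays. Nr4a1 differed from these medians by at most 0.138 log2 units on any array, with a root mean square difference of 0.0753 over 6 arrays. The same measure for Nr4a1 was 0.358 against pericyte and smooth muscle markers. For Egr3 it was 0.281 against the endothelial and 0.305 against the pericyte list, which differ little. These comparisons were picked, after the values were seen, from those of each tested early response gene with the marker lists. The smallest value among those was that of Klf4 against marginal cell markers, at 0.0458. Klf4 itself varied little, with a root mean square deviation of 0.0996, against 0.511 for Nr4a1. How many other genes lay as near to the endothelial markers was not counted. The part of endothelial cells in the spread of Nr4a1 and Egr3 was not tested.

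On the heterozygous arrays Egr1, Fos, Ier2 and Klf4 did not follow the endothelial markers, being highest in replicate 1. In that array 18S ribosomal control probe sets were also high, with the 5' one at 2613, against 410 and 350 in heterozygous replicates 3 and 5. The same probe set was at 1038, 1683 and 484 in knockout replicates 2, 4 and 6. Of these knockout arrays, Egr1 was highest in replicate 2 and Klf4 in replicate 4. Fos and Ier2 were highest in replicate 6, where the endothelial markers also peaked. The ratio of the 3' to the 5' actin control was 2.42 in heterozygous replicate 1, the lowest of the 6 arrays. The part of RNA quality in these values was not tested. Markers of lymphocytes and of skeletal muscle were near background on all arrays, with summed signals of at most 77.4 over 3 markers and 112 over 4. Cartilage and bone markers, by contrast, had summed signals of 12040 to 15160 in knockout samples, against 7458 to 10010 in heterozygous samples, with 6 of 7 at an unadjusted limma p under 0.05, a median log2 difference of 1.11 and 0 called. Of 6 fibrocyte markers 3, and of 4 root and spindle cell markers (Slc26a4 among them) 3, had an unadjusted p under 0.05, with median log2 differences of 0.12 and -0.82 and 0 called. Heterozygous replicate 5 stood apart on both lists. The median deviation from the heterozygous mean there was 0.91 for fibrocyte and 0.82 for root and spindle cell markers. It was -0.49 and -0.53 in replicate 1, and -0.10 and -0.33 in replicate 3. The part of these cells in the values of the early response genes was not tested.

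The genotype difference of single genes changed side with the array left out. Fos, Junb, Egr1, Ier2, Nr4a1 and Dusp1 each had a difference of the opposite sign without at least 1 array, whereas Jun, Egr3 and Klf4 kept a negative difference whichever array was left out. Jun ranged from -0.53 without knockout replicate 6 to -0.15 without knockout replicate 2, and Klf4 from -0.17 to -0.04. No gene was called in any of these fits, the lowest adjusted p over all alternatives being 0.201, for Jun.

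**Figure D5:**
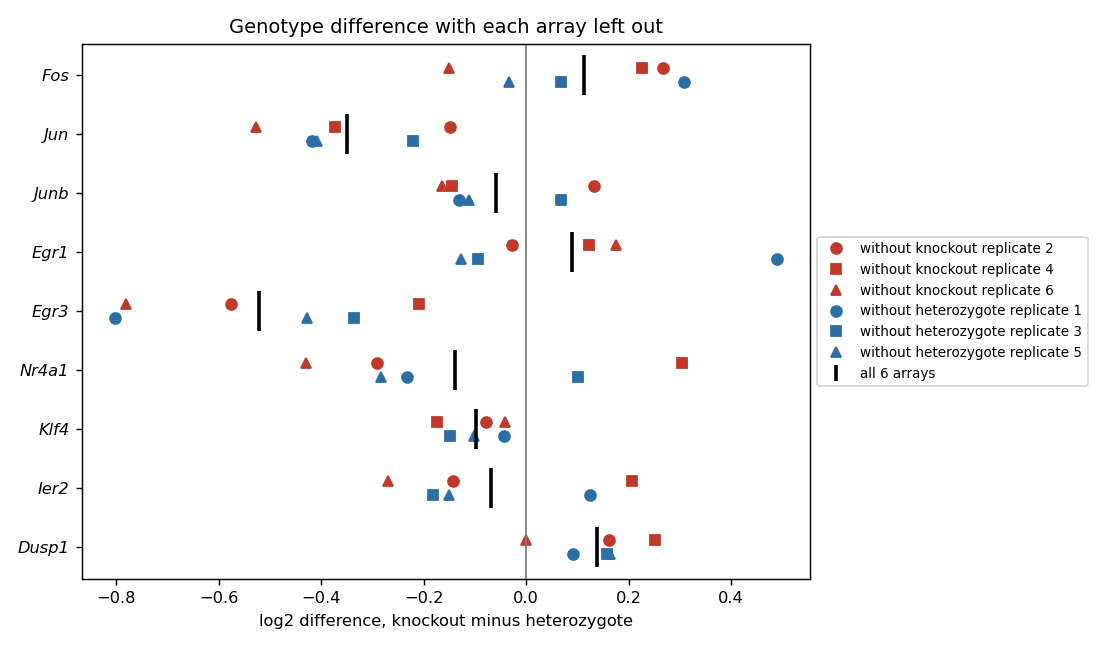
Log2 difference, knockout minus heterozygote (x axis), of the 9 genes with all 6 arrays (black bar) and with each array left out (red for a knockout array, blue for a heterozygous one). Points lie on both sides of 0 for 6 genes and to its left for Jun, Egr3 and Klf4.

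Other genes of the early response had no calls either, near the share of 0.00805% called over all tested genes. Of 16 further transcription factors, 13 were tested, and limma called 0, with 0 at an unadjusted p under 0.05 (6.44% of all tested genes). Their median log2 difference was -0.01 and their median SD within genotype was 0.429. Myc, a growth regulator, was at 186, 128 and 125 in knockout samples, against 120, 73.7 and 82.5 in heterozygous samples. Its log2 difference was 0.59 (limma adjusted p = 0.429), and it was the only one of the 13 whose groups did not overlap. Such a separation was seen in 13.1% of all tested genes. Csrnp1, a nuclear protein induced by axin, had a log2 difference of -0.53 (limma adjusted p = 0.588). Nr4a3, a relative of Nr4a1, was at 108, 29.3 and 612 in knockout samples, against 30.3, 117 and 340 in heterozygous samples. Its lowest and highest knockout arrays were the same as for Nr4a1, and also as for Csrnp1, Fosl2, Nr4a2, Klf2 and Maff. Its highest heterozygous array, replicate 5, was the lowest for Nr4a1. The SD of Nr4a3, 1.71, was the widest of the 13. Nr4a3 was chosen after its values were seen.

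Among 26 early effectors and feedback genes, 23 were tested and 0 were called, with 3 higher and 1 lower in knockout samples at an unadjusted p under 0.05. Ccn1, a secreted matrix protein, was at 3002, 2471 and 1973 in knockout samples, against 1694, 1023 and 1093 in heterozygous samples (log2 difference 0.97 ± 0.22 SE, limma adjusted p = 0.371). Gadd45g, a stress protein that halts growth, was at 165, 243 and 188 in knockout samples, against 154, 80.6 and 118 in heterozygous samples (log2 difference 0.71, limma adjusted p = 0.377). In both genes every knockout array was above every heterozygous one, which held for 3 of the 23, while the reverse held for another 3. Over all tested genes the groups did not overlap in 13.1%, and 6.44% had an unadjusted p under 0.05. The median log2 difference of this list was 0.12 and its median SD 0.260.

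Upstream of the early genes, 14 of 18 kinases and factors were analysed here, with 0 called and 0 at an unadjusted p under 0.05. For this list and the heat shock genes below, the shares over all tested genes were 0.00805% called and 6.44% at an unadjusted p under 0.05. The log2 difference of Elk3, a partner of SRF, was -0.34 (limma adjusted p = 0.519). That of Mef2a, a calcium-responsive factor, was -0.21 (limma adjusted p = 0.573). Their median was -0.10 and their median SD 0.177. Of 11 heat shock genes 0 were called and 1 had an unadjusted p under 0.05, Dnajb1, a chaperone partner of Hsp70, at 1649, 1241 and 1678 in knockout samples, against 1889, 1834 and 2012 in heterozygous samples (log2 difference -0.34, limma adjusted p = 0.419). Hspb1, a small heat shock protein, had a log2 difference of -0.51 (limma adjusted p = 0.525). The heat shock list had a median SD of 0.188. Of these lists, the other transcription factors came nearest to the spread of the 9 genes (0.409). The upstream and heat shock lists lay below the value of all genes (0.211). Spread depended on level, and the lists were not matched for level, so this order may reflect how bright their genes were.

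The mean profile of the 9 genes over the 6 arrays, each gene centred on its own mean, was -0.09, -0.30 and 0.24 log2 units in knockout replicates 2, 4 and 6, against 0.11, 0.12 and -0.08 in heterozygous replicates 1, 3 and 5. Of 12412 other genes, the nearest to it by root mean square difference over the 6 arrays were Gm13889 (0.0345), Fbxo22 (0.0414), Tbc1d8b (0.0425), Ets1 (0.0467) and Cdc40 (0.0469). All 5 had their lowest value in knockout replicate 4 and their highest in knockout replicate 6, except Ets1, which was highest in heterozygous replicate 3. This mean hides the difference between Fos, Egr1 and Ier2 on the one side and Jun, Junb, Egr3 and Nr4a1 on the other in the heterozygous arrays.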

How the data were processed

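The authors deposited signal intensity, not log-transformed; GCOS, the array maker's software, is named in the submitters' processing notes, and its version and settings are not given in the sources used here. Per the labels' protocols, RNA was amplified and labelled with a NuGEN Ovation kit. The trimmed mean of every array was 500.002, so the arrays had been scaled before deposit.

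Genotype and replicate were read from sample titles. The 64 control probe sets of 45101 were left out of tests, signals were turned into log2(signal + 16), and probe sets under the 40th percentile of the mean over arrays (46.3) were removed, leaving 27022. limma 3.58.1 in R 4.3.3 (lmFit, eBayes with a variance trend) was run on all of them. Tests were two-sided, p-values were adjusted by the Benjamini-Hochberg method over the 27022, and calls were made under 0.05. A gene stood by its brightest tested probe set. Symbols came from the platform annotation, in which 34945 probe sets had 1 symbol, 932 several and 9160 none; Mrtfa and Mrtfb were matched by gene identifier. An exact permutation test of 3 against 3 arrays cannot go below p = 0.1 and was not used for calls. Intervals are 95% intervals of the fit, and the number of arrays limits their precision. The fit was tested on simulated data.

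Members and lists were chosen with earlier results of these data known. Named genes were all members, Slc26a4, up to 2 genes a list by limma p, the 5 nearest profiles and the first 2 markers of each cell type used. Alternatives were each array left out, array weights, quantile normalisation, centring on the median, offsets of 1 and 64, a filter at the 60th percentile or none, averaging probe sets per gene, and no variance trend. Figures were drawn with matplotlib 3.10.9.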

Additional observations from a re-analysis of the deposited data

How the results depend on the processing

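No early response gene was called by limma under any of 15 alternatives, and at most 2 had an unadjusted p under 0.05. Of 131 log2 differences of single genes under them, 114 kept their sign and 17 did not, in 6 genes; the cause was not tested. With median centring Fos was at -0.0858, Egr1 at -0.11 and Dusp1 at -0.0616, and with array weights Ier2 was at 0.18 and Nr4a1 at 0.20. With each array left out in turn the ranges were -0.15 to 0.31 for Fos, -0.16 to 0.13 for Junb, -0.13 to 0.49 for Egr1, -0.27 to 0.21 for Ier2, -0.43 to 0.31 for Nr4a1 and -0.00086 to 0.25 for Dusp1. The median of the genes was 0.16 with array weights and -0.16 to 0.12 with an array left out. The groups did not overlap for 1 gene, Klf4, with median centring and with the mean of probe sets (1 each), and for 0 to 2 genes with an array left out. Over all genes the share was 26.4% with median centring, 15% with the mean of probe sets and 19% to 31.3% with an array left out. The 60th percentile filter left 5 of the genes, 3 of them above the 75th percentile of spread. With no filter Fosb was tested, with a log2 difference of 0.15 (limma adjusted p = 0.858). No paired analysis was run, because the titles number the samples serially across both genotypes and do not say whether any were paired. Signal over background limits Fosb, Junb and Egr3.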
